A study of Mus musculus with 10 samples.

Results

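STAT5B binding in the mouse mammary gland was compared between tissue that had STAT5A and tissue that lacked it. The members are the 6976 STAT5B peaks of wild type tissue and the 2578 STAT5B peaks of Stat5a-null tissue, out of 35791 peaks in the 3 lists used. A wild type STAT5B peak was called kept when a Stat5a-null STAT5B peak overlapped it by at least 1 bp, and lost otherwise. By that rule 2426 wild type peaks were kept, 4550 were lost, and 152 Stat5a-null peaks had no wild type STAT5B peak.

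The series holds 10 samples of mammary tissue taken on the day of parturition, from mice of the mixed strain 129SV::FVB/N::C57BL/6. The wild type samples, titled AABB, came from mice with both genes, and the Stat5a-null samples, titled BB, from mice that lacked Stat5a and still had Stat5b. Chromatin immunoprecipitation and sequencing (ChIP-seq) with antibodies against STAT5A or STAT5B gave 3 peak lists, of STAT5B in either genotype and of STAT5A in wild type tissue. Each list comes from 1 library, the labels do not say how many animals it pools, and the other 7 samples were not analysed here. The genotypes can thus be compared without any replicate, and nothing was tested. Peak lists hold no expression values, so neither the cell types of the tissue nor the loss of Stat5a could be checked. Whether either antibody binds the other protein was not tested.

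STAT5A and STAT5B are transcription factors of nearly the same sequence, made from neighbouring genes. Cytokine and hormone receptors act through the kinase JAK2, which phosphorylates STAT5. The phosphorylated proteins then pair, enter the nucleus and bind DNA. In the mammary epithelium prolactin is the main signal for this step, and STAT5 drives alveolar growth and the milk protein genes. Stat5a is the more abundant of the pair in this tissue, and mice without it form poorly developed alveoli. In whole tissue, fewer epithelial cells and less STAT5B bound per cell cannot be told apart.

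Coordinates are on mm9, counted from 1, with the chromosome band of that build. The gene table at hand is of a later build, so peaks are described by position and band and not by gene. The authors' value in each list has no stated scale. It is called the score here and was used to rank peaks within their own list, rank 1 being the highest and tied scores sharing a rank. The wild type STAT5B scores ran from 191.8 to 9.3 with a median of 17.7. Those of the Stat5a-null list ran from 168.1 to 8.2 with a median of 16.7. Intervals of shares are exact (Clopper-Pearson, 95%), treat peaks as independent and leave out any spread between libraries. The depth of the libraries is unknown.

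The 2426 kept peaks were 34.8% of the wild type list (interval 33.7 to 35.9%) and 94.1% of the Stat5a-null list. Peaks of the Stat5a-null list thus lay almost wholly at wild type STAT5B sites, and most peaks of the full wild type list had no Stat5a-null peak. The share depends on list length: with both lists cut to the Stat5a-null length, 68.5% were kept. Kept peaks coincided closely. The peak centres lay a median of 19 bp apart, 2410 of the 2426 shared at least 50% of their length, and 8 overlapped by under 100 bp. Lost peaks were seldom near misses, since 55 of them (1.21%) had a Stat5a-null peak within 500 bp and 4495 had none.

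Keeping followed the wild type rank closely. The wild type list was cut into 20 bins by rank, with tied scores in 1 bin. In the highest bin (scores of 41.1 and above) 329 of 346 peaks were kept, or 95.1% (92.2 to 97.1%). The share was 87.1% in the second bin, 66.3% in the fifth and 51.3% (45.9 to 56.6%) in the sixth. It was 27.7% in the tenth and 2.68% in the lowest, where 11 of 411 peaks were kept. By quartile of the wild type rank the shares were 78.5, 39.1, 15.5 and 5.57%.

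The decline was spread over more ranks than in a reference of equal length cut from the top of the STAT5A list. For comparison, the 2578 highest-ranking wild type STAT5A peaks were taken, to equal the Stat5a-null list in length. These lay at 2558 wild type STAT5B peaks, or 36.7%, close to the overall share kept. Their share over the STAT5B bins lay between 95.7 and 99.7% in the first 4 bins, was 82.5% in the sixth and fell to 0 in the sixteenth. The share kept was below this reference in the first 8 bins and above it in the other 12, with overlapping intervals in bins 1, 7, 8 and 9. Over the first 10 bins 2069 of 3532 peaks were kept (58.6%, 56.9 to 60.2%), against 2483 (70.3%, 68.8 to 71.8%) at the STAT5A reference. Over the last 10 bins 357 of 3444 were kept (10.4%, 9.37 to 11.4%), against 75 (2.18%, 1.72 to 2.72%). Both sets held 1758 STAT5B peaks. A further 668 kept peaks (27.5% of those kept) lay outside the reference, and 800 reference sites (31.3% of the 2558) were lost. The reference and the wild type STAT5B list come from tissue of 1 genotype, and the kept share sets 2 genotypes against each other with 1 library each. The reference also comes from another antibody and from the top of a list of 26237 peaks, and the Stat5a-null list was used whole. Genotype, library, antibody and place in the list cannot be told apart here.

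**Figure D1:**
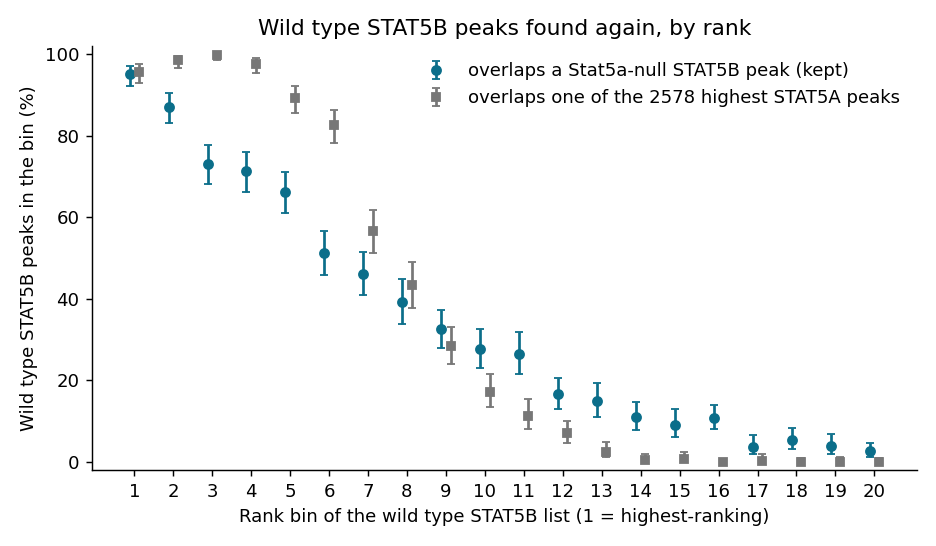
Percent of wild type STAT5B peaks (vertical axis) in each of 20 rank bins (horizontal axis, 1 the highest) that were kept in Stat5a-null tissue, and percent that lay at one of the 2578 highest-ranking wild type STAT5A peaks. Bars are exact 95% intervals over peaks, and the kept curve lies below the reference in the first 8 bins and above it in the other 12.

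Strong STAT5A binding in wild type tissue went with keeping, beyond the STAT5B rank, by a small margin. STAT5A rank was expressed as a percentile of the 26237 peaks of the STAT5A list, 100 being the highest. Without regard to STAT5B rank it averaged 92.8 at the 2400 kept peaks with a STAT5A peak and 81.5 at the 4488 lost ones. Kept and lost peaks were then matched on STAT5B rank, each of the 20 bins counting by the smaller of its 2 classes. At matched rank the averages were 89.8 and 88.4, a difference of 1.42 percentile points with an interval of 1.21 to 1.64 over peaks. The median was higher at kept peaks in 18 of the 20 bins, the exceptions being the second and the seventeenth. In the sixth bin the medians were 92.9 and 91.9, and in the tenth 88.6 and 85.4. The matched medians correspond to places 2351 and 2671 in the STAT5A list. Matching thus left a small part of the unmatched gap between 1490 and 4604.

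**Figure D2:**
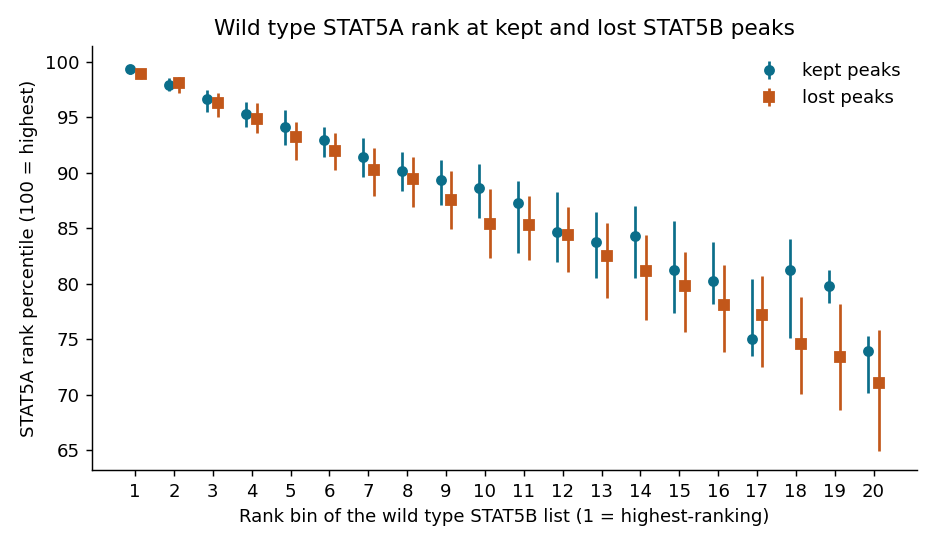
Median percentile of the wild type STAT5A peak (vertical axis, 100 the highest) at kept and at lost STAT5B peaks in each of 20 STAT5B rank bins (horizontal axis, 1 the highest), with bars from the lower to the upper quartile. Kept peaks have the higher median in 18 of the 20 bins, and the differences are small.

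The share kept therefore differed within a STAT5B quartile by the STAT5A quartile (of the STAT5A percentile over STAT5B peaks, the first being the highest). In the first STAT5B quartile 81.3% (79.2 to 83.2%) of 1492 peaks in the first STAT5A quartile were kept, and 60.4% (53.7 to 66.9%) of 225 in the second. In the second STAT5B quartile the shares were 57.8% of 225 peaks, 42.3% of 1109, 25.5% of 377 and 5.56% of 54 from the first STAT5A quartile to the last. In the third STAT5B quartile they were 25.3% of 352, 15.0% of 861 and 8.12% of 431 from the second STAT5A quartile to the last. In the fourth they were 9.30% of 43, 10.6% of 480 and 3.49% of 1232. STAT5B rank still differs within a quartile, so these shares are not matched on it as finely as the 20 bins.

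Having a STAT5A peak at all hardly separated the classes. A wild type STAT5A peak overlapped 98.9% of kept and 98.6% of lost peaks. At matched rank the shares were 99.3 and 98.4%, a difference of 0.886 points (0.231 to 1.54), which turned to -0.821 when a gap of up to 500 bp counted as overlap. Without a STAT5A peak were 26 kept peaks (1.07%, 0.701 to 1.57%) and 62 lost ones (1.36%, 1.05 to 1.74%). Of the 26, 12 fell in the highest rank bin, which held 329 of the 2426 kept peaks, and 8 lay on chromosome 13. Of the 62, 5 lay on chromosome 13 and the best ranked 57. Chromosome 13 held 120 of all kept peaks and 389 of the 6976 wild type STAT5B peaks.

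The 6 highest-ranking STAT5B sites held the same or nearly the same places in both lists. Most of these 6 had no STAT5A peak, against 1.07% of all kept peaks. The peaks of ranks 1, 2 and 3 in wild type tissue were ranks 1, 2 and 3 in Stat5a-null tissue. They lay at chr11:108873125-108873376 (11qE1, score 191.8), chr5:147072604-147072855 (5qG3, 153.5) and chr3:5860621-5860872 (3qA1, 134.4). No STAT5A peak overlapped any of the 3. The fourth, at chr1:140503453-140503704 (1qE4, score 124.2), was also rank 4 in Stat5a-null tissue, and the highest STAT5A peak lay there. Ranks 5 and 6, at chr17:36368242-36368493 and chr16:57391507-57391758, had Stat5a-null ranks 6 and 5 and no STAT5A peak. The next 4 all had STAT5A. At chr4:40817327-40817578 (4qA5) the wild type STAT5B, Stat5a-null STAT5B and STAT5A ranks were 7, 10 and 5. At chr17:29532408-29532659 (17qA3.3) they were 8, 15 and 20, and at chr2:58040211-58040462 (2qC1.1) 9, 14 and 6. At chr7:126090957-126091208 (7qF2) they were 9, 9 and 2.

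Below these, ranks moved more. Over the 2426 kept peaks Spearman's rho between the ranks was 0.690, given as a description, since both ranks come from peaks that had to be called in both lists. Of the 1369 kept peaks of the first wild type quartile, 595 (43.5%) were in the first quartile of the Stat5a-null list and 113 (8.25%) in its last. Median Stat5a-null ranks for the kept peaks of the 4 wild type quartiles were 741, 1675, 1941 and 2114. None of the 99 kept peaks of the last wild type quartile reached the first Stat5a-null quartile, and 63 were in its last. Among these 99, the highest Stat5a-null ranks were at chr13:67379434-67379685 (13qB3, rank 786), chr19:10397936-10398187 (19qA, 858) and chr12:85586783-85587034 (12qD1, 858). Their wild type ranks were 6432, 5490 and 6566, and since the Stat5a-null list is shorter, any kept peak of such a rank has a smaller rank number there. STAT5A peaks overlapped all 3, at STAT5A ranks 4540, 4765 and 8723.

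**Figure D3:**
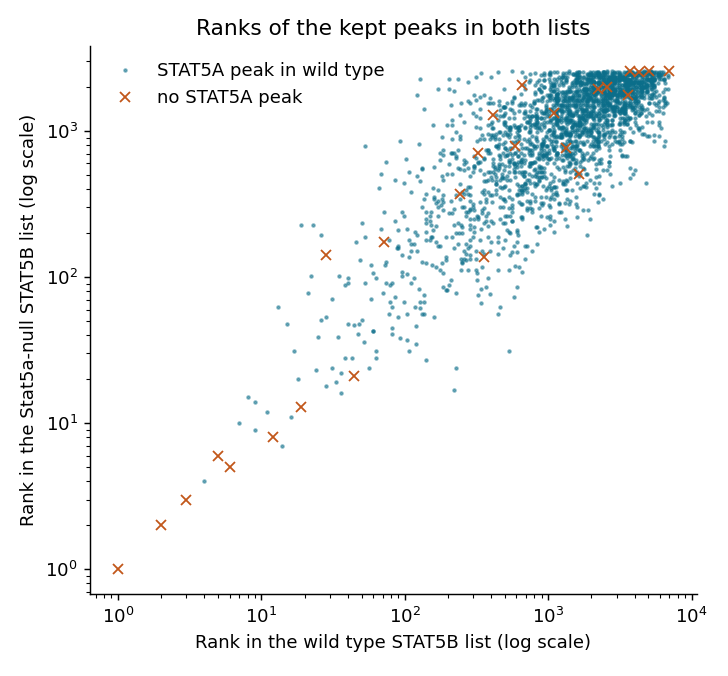
Rank of each of the 2426 kept peaks in the wild type STAT5B list (horizontal axis) and in the Stat5a-null STAT5B list (vertical axis), 1 being the highest in each. Points are single peaks, and the spread widens below the highest ranks (Spearman's rho 0.690).

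Lost peaks of high rank stood beside kept peaks of equal score. The highest-ranking lost peaks were at chr19:61275535-61275786 (19qD3, score 59.7, rank 57) and chr16:11144102-11144353 (16qA1, 58, rank 66), and neither had a STAT5A peak. A kept peak at chr13:51871753-51872004 had the score of the latter, with STAT5A rank 55 and Stat5a-null rank 406. The remaining 8 of the 10 highest-ranking lost peaks all had strong STAT5A peaks, at STAT5A ranks from 129 to 412. The third lost peak, at chr6:82522898-82523149 (6qC3, score 48.2, rank 165, STAT5A rank 187), lay 14580 bp from the nearest Stat5a-null peak. That nearest peak was at a kept site of slightly lower score, chr6:82508275-82508526 (46.1, rank 202, STAT5A rank 293), which ranked 2277 in Stat5a-null tissue. The lost peak at chr13:72059898-72060149 (13qC1, score 46.8, rank 185) had STAT5A rank 169, and 542245 bp separated it from the nearest Stat5a-null peak. Kept peaks of the same score had STAT5A ranks from 75 to 353 and Stat5a-null ranks from 85 to 741. Among them chr17:29525915-29526166 (17qA3.3), with STAT5A rank 75, had the highest Stat5a-null rank, 85. Next was chr13:46792258-46792509 (13qA5), with STAT5A rank 179 and Stat5a-null rank 107. At chr13:51953910-51954161 (13qA5, score 46.1, rank 202) the lost peak had STAT5A rank 129. Of the 5 kept peaks of that score, 4 had a weaker STAT5A peak and 1, at rank 124, a stronger one. Of the 10 highest-ranking lost peaks, 3 lay on chromosome 13, 2 of them in band 13qC1. That chromosome held 389 of the 6976 wild type STAT5B peaks, and the band 33.

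Adjacent STAT5B sites differed slightly less often than their ranks gave when they lay close together. "By rank" is here the number obtained when every peak takes the kept share of its own rank bin. Of 1331 pairs of adjacent wild type STAT5B peaks within 10 kb of each other, 556 had 1 kept and 1 lost peak (41.8%, 39.1 to 44.5%), against 45.4% by rank. The higher-ranking peak was the kept one in 496 of the 556 (89.4%), the lower-ranking one in 59, and 1 pair was tied. Pairs over 250 kb apart gave nearly the same share, 87.7%. In 58 of the 59 both peaks had a STAT5A peak, and the STAT5A peak ranked higher at the kept site in 23. Within 2.5 kb, 196 of 522 pairs differed (37.5%, 33.4 to 41.9%), against 43.8% by rank. This difference of -6.24 points was -13.9 when a gap of up to 500 bp counted as kept. Both peaks were lost in 227 pairs against 197.5 by rank, and both kept in 99 against 96.0. From 2.5 to 10 kb the shares were 44.5% (41.0 to 48.0%) and 46.4%. From 10 to 25 kb, 41.6% of pairs differed (37.9 to 45.4%) against 45.9% by rank. From 25 to 100 kb the shares were 42.7% (40.3 to 45.2%) and 45.1%. Over all pairs within 100 kb they were 42.2% (40.6 to 43.8%) and 45.4%, so the deficit was not confined to the closest pairs. From 100 to 250 kb they were 44.4% (41.5 to 47.3%) and 43.4%. Beyond 250 kb, 44.9% differed (42.7 to 47.0%) against 43.1% by rank. Adjacent pairs share peaks, so their interval is too narrow.

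**Figure D4:**
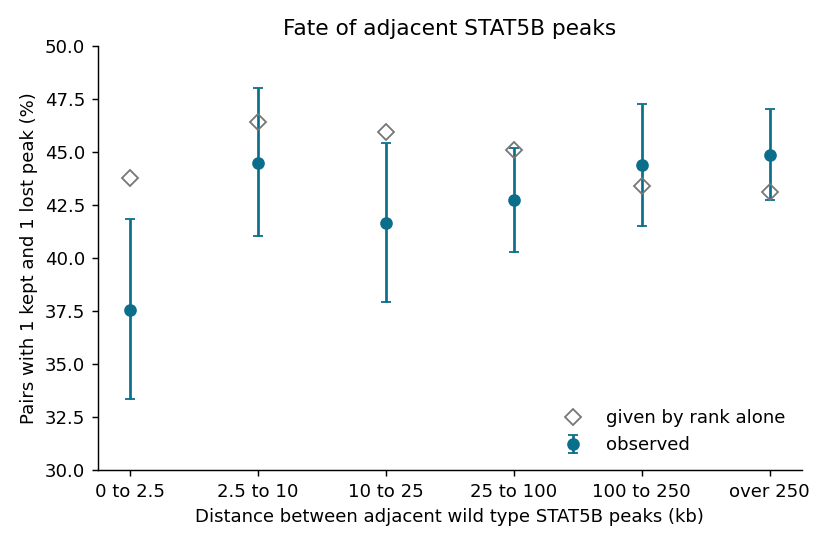
Percent of pairs of adjacent wild type STAT5B peaks in which exactly 1 peak was kept (vertical axis), by the distance between the peaks in kb (horizontal axis), beside the percent given by rank. Bars are exact 95% intervals over pairs, and pairs within 2.5 kb differ less often (37.5%) than by rank (43.8%).

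How densely STAT5B bound around a site separated kept from lost peaks little once rank was matched. Another wild type STAT5B peak lay within 25 kb of 52.1% of kept and 45.6% of lost peaks. At matched rank the order turned, with 47.5 and 50.2% and a difference of -2.69 points (-5.83 to 0.444). Within 5 kb the matched shares were 22.6 and 25.1% (difference -2.58, -5.27 to 0.104). Within 100 kb they were 75.0 and 75.8% (-0.774, -3.49 to 1.95). All 3 intervals hold 0. Other STAT5A peaks within 25 kb averaged 2.06 at kept and 2.09 at lost peaks at matched rank.

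In clusters of STAT5B peaks the strongest site was usually kept, and the weaker sites of clusters of 4 or more were kept less often than their ranks gave. Peaks with gaps of at most 12.5 kb were joined, which gave 83 clusters of 4 or more peaks. Of these 68 held kept and lost peaks together, 5 kept every peak and 10 kept none. The best-ranking peak was kept in 67 of 83 (80.7%, 70.6 to 88.6%), close to the 78.2% by rank. Of the other 285 peaks 82 were kept (28.8%, 23.6 to 34.4%), against 36.8% by rank, a difference of -8.06 points (-13.2 to -2.42). The deficit was -7.61 points with 50 rank bins and -8.57 when matched on STAT5A quartile as well. It was -2.74 (-6.39 to 1.07) with gaps of up to 25 kb and -3.06 (-6.49 to 0.555) when clusters of 3 were included, and -17.2 (-26.8 to -4.23) with gaps of at most 5 kb. It was -5.71 (-11.1 to 0.0448) when a gap of up to 500 bp counted as kept. The lower-ranking peaks of pairs were kept in 20.4% (17.8 to 23.3%) against 22.3% by rank. In clusters of exactly 3 no deficit appeared, with 28.2% (23.7 to 33.1%) against 27.5% by rank. Peaks with no neighbour within 12.5 kb were kept in 1427 of 4359 cases (32.7%, 31.3 to 34.2%), against 32.0% by rank.

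All 21 clusters of 5 or more peaks were mixed, and the best-ranking peak was kept in 20 of them (95.2%, 76.2 to 99.9%), against 17.9 by rank. The cluster at chr9:107197990-107237038 (9qF1, 39.0 kb) held 8 peaks. Its strongest peak, at rank 31, was kept at Stat5a-null rank 24, and STAT5A had rank 33 there. The other 7 peaks, at ranks from 544 to 3925, were all lost, against 3.85 kept by rank in the whole cluster. The 9-peak cluster at chr11:117830451-117869074 (11qE2) held the most peaks. It kept 2, of ranks 1097 and 2100, at Stat5a-null ranks 2005 and 786, against 3.07 by rank. The 7-peak cluster at chr11:109599699-109634517 (11qE1) kept 4, at ranks 36, 378, 1156 and 3101, against 4.42 by rank, and lost 3, at 729, 1673 and 3831. In the 5-peak cluster at chr14:73152817-73178000 (14qD3), which kept 2 peaks against 4.01 by rank, peaks of nearly equal score parted. The peak of score 45.6 (rank 209, STAT5A rank 190) was kept, though only at Stat5a-null rank 1503, and the peak of score 45.1 (rank 221, STAT5A rank 411) was lost. The 1 cluster of the 21 that lost its best peak was at chr6:114823779-114841203 (6qE3). Its best peak, rank 2216, was lost and its peak of rank 4023 was kept, against 1.36 kept by rank.

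**Figure D5:**
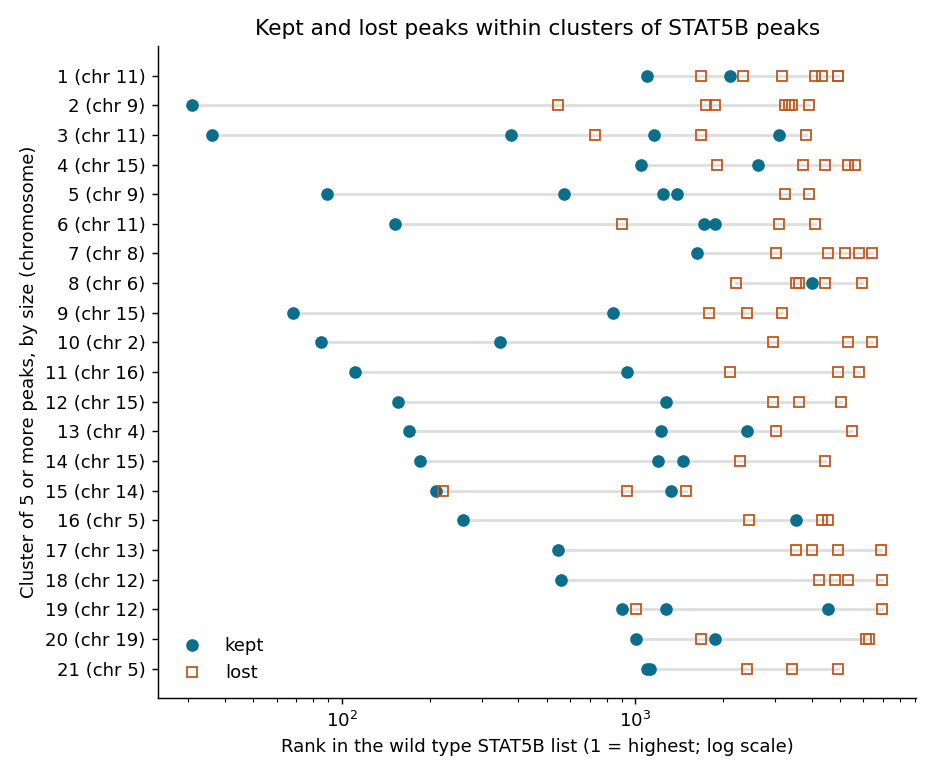
Rank in the wild type STAT5B list (horizontal axis, log scale, 1 the highest) of every peak in the 21 clusters of 5 or more peaks (rows, with chromosome), filled circles for kept and open squares for lost peaks. The best-ranking peak is kept in 20 of the 21 clusters (17.9 by rank), the exception being cluster 8 on chromosome 6.

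Clusters of 4 peaks gave both extremes. The 5 that kept every peak had from 2.38 to 3.42 kept by rank, and the 10 that kept none from 0.378 to 2.48. The best-ranking of the 5 was at chr17:74299600-74320015 (17qE2), with ranks 46, 400, 602 and 926 and STAT5A ranks 22, 202, 206 and 275. By rank it had 3.42 kept, near the 4 observed. A second, at chr2:9724267-9742941, kept peaks from rank 63 down to 6432, against 2.38 kept by rank. The best-ranking of the 10 that kept none was at chr8:84915790-84927158 (8qC2), with STAT5B ranks 342, 424, 1871 and 4227 and STAT5A ranks 283, 309, 1199 and 5595, against 2.48 kept by rank. At chr15:25876237-25891804 the best peak (rank 166, STAT5A rank 318) was lost. The other 3, at ranks 491, 862 and 2716, were kept with STAT5A ranks 192, 626 and 3058, close to the 2.95 kept by rank.

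Keeping was spread evenly over the genome at this resolution. On 19 of 20 chromosomes the share kept differed from the share by rank by less than its interval, with ratios of kept to by rank between 0.863 and 1.11 over all 20. The exception was chromosome 13, where 120 of 389 peaks were kept (30.8%, 26.3 to 35.7%) against 139.0 by rank. On the X chromosome 15 of 80 were kept against 15.4 by rank. Light and dark Giemsa bands, a stain that separates gene-rich from gene-poor chromatin, differed little. At matched rank 47.5% of kept and 46.1% of lost peaks lay in light bands (difference 1.41 points, -1.76 to 4.57).

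Of 157 bands with at least 20 peaks, 153 had the share by rank within their interval, 2 fell below and 2 above. These 4 were singled out after their values were seen. Band 13qC1 kept 8 of 33 peaks (24.2%, 11.1 to 42.3%) against 14.9 by rank, and 8qC2 kept 6 of 26 (23.1%, 8.97 to 43.6%) against 12.1. In the first 7 rank bins these bands kept 7 of 16 and 5 of 15 peaks. Band 7qE3 kept 20 of 29 (69.0%, 49.2 to 84.7%) against 13.3 by rank, and 15qE1 kept 18 of 37 (48.6%, 31.9 to 65.6%) against 10.8. In the first 7 bins these kept 14 of 15 and 9 of 10. Over all peaks the shares kept in those 7 bins were 95.1, 87.1, 73.1, 71.3, 66.3, 51.3 and 46.2%. The counts of the first 7 bins are part of those by which the 4 bands were singled out, so they add no separate evidence. Among 157 bands some fall outside a 95% interval through counting error alone.

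The 152 Stat5a-null STAT5B peaks without a wild type STAT5B peak were mostly weak. Their median Stat5a-null rank was 2005 of 2578, 86 were in the last quartile and 4 in the first, and 19 lay within 500 bp of a wild type STAT5B peak. Most were still STAT5 sites of wild type tissue, since 138 (90.8%, 85.0 to 94.9%) had a wild type STAT5A peak. That STAT5A peak ranked lower than at shared sites, with median percentiles of 71.9 and 94.3. Matched on Stat5a-null rank the averages were 68.6 and 89.5, a difference of 20.9 percentile points (18.1 to 23.7) over 135 peaks. The 152 lack a wild type STAT5B peak by definition, and STAT5A rank fell with wild type STAT5B rank. A lower STAT5A rank is thus built into the selection, and matching on Stat5a-null rank does not remove it. The highest-ranking of the 152 was at chr13:102944499-102944756 (13qD1, score 32.4, Stat5a-null rank 219), without a STAT5A peak. The next were at chr7:130190492-130190749 (7qF3, 27.4, rank 370, STAT5A rank 664) and chr1:55742384-55742641 (1qC1.2, 25, rank 481, STAT5A rank 859). All 3 of these lay within 500 bp of a wild type STAT5B peak, at 374, 259 and 282 bp. At chr3:96355887-96356144 (3qF2.1, 25, rank 481) there was no STAT5A peak, and the nearest wild type STAT5B peak was 580 bp away.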

How the data were processed

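Per the submitters' processing notes, the authors used CASAVA, BWA and HOMER on mm9. The series holds an input library of each genotype, but the sources used here do not say which control each peak call used. They give no version either. The names of the lists carry a number that may be a calling threshold, but nothing says so. The deposited lists hold a position and the authors' signal for each peak (the score). Starts were read as 0-based.

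Overlaps, rank bins, Clopper-Pearson intervals and rank-matched differences were computed in Python 3.11.15 with numpy 2.4.6, pandas 2.3.3 and scipy 1.17.1, and tested on simulated data. Bands came from circlize 0.4.16 and chromosome lengths from GenomeInfoDb 1.38.1 (R 4.3.3). Unplaced peaks (7 wild type STAT5B, 4 Stat5a-null STAT5B and 20 STAT5A) entered overlaps and not chromosome or band counts.

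Members, lists and rules were chosen with earlier results of these data known. No mm9 annotation or sequence was at hand, so genes, start sites, gene lists, motifs and base composition were not analysed. The rule for names (the 10 highest-ranking kept and lost peaks, the genes with the most peaks, and those all kept or all lost) was applied to peaks and, in place of genes, to clusters. Cluster, pair and band measures were added after the data were seen.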

Additional observations from a re-analysis of the deposited data

How the results depend on the processing

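In all, 11 results were recomputed under 39 alternatives. Of these, 31 stayed within the spread of the main value, 7 moved and 1 reversed. The share of wild type STAT5B peaks kept (34.8%) stayed between 34.2 and 35.6% under other overlap rules. It was 18.1% when the higher-ranking 50% of the Stat5a-null list was used, a cut that can only lower it. With both lists cut to the Stat5a-null length it was 68.5%, so the share depends on list length. The matched STAT5A difference ranged from 1.40 to 1.53 points. Counting gaps of up to 500 bp as overlap reversed the difference in the share with a STAT5A peak from 0.886 to -0.821. It moved the pair deficit within 2.5 kb from -6.24 to -13.9 points and the share with a STAT5B neighbour within 5 kb from -2.58 to 0.334. Under that rule a single Stat5a-null peak can make both peaks of a close pair kept. How much of these 3 shifts this gives was not tested. Clusters of 5 or more with a kept peak numbered 21, 2 with gaps of 5 kb and 62 with gaps of 25 kb, by construction. With gaps of 5 kb the deficit of lower-ranking cluster peaks was -17.2 points. It was -2.74 (-6.39 to 1.07) with gaps of 25 kb and -3.06 (-6.49 to 0.555) when clusters of 3 were included. Counting gaps of up to 500 bp as kept gave -5.71 (-11.1 to 0.0448). These smaller deficits were counted among the 31, though their intervals include both signs. Alternatives that need genes, start sites or sequence were not run, nor was the wild type list cut to the Stat5a-null length for location. No paired analysis was possible because each group holds 1 library and no result comes from a test. Depth is unknown, and a lost peak is a site without a called peak, which does not show that STAT5B was absent there.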
